A study of Mus musculus with 2 samples.

Results

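The genes described here are 9 genes through which retinal ON bipolar cells answer to glutamate, or by which such cells are recognised: Grm6, Trpm1, Gng13, Pcp2, Isl1, Prkca, Cabp5, Gnao1 and Car8. They are a list of names among the 31053 genes of the expression matrix, chosen with earlier results of these data known, and all 9 had counts. A barcode was said to hold a gene when it had at least 1 unique molecular identifier (UMI, a tag that marks 1 captured RNA molecule) of that gene. Of 834 cell barcodes, 48 held 3 or more of the 9 genes (5.76%, exact Clopper-Pearson 95% interval 4.27% to 7.56%), and these 48 are called the set. They were compared with 679 rods, defined as barcodes outside the set in which the rod genes Sag, Pdc, Gngt1 and Gnat1 together made up at least 1% of UMIs.

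The study electroporated wild-type mouse retinas at birth with the pCIG2 plasmid, which carries an IRES2-EGFP reporter, either empty (Control) or with an insert for lamin A (Lmna) or the lamin B receptor (Lbr). Viable EGFP-positive cells were sorted from adult retinas, the cells of each of the 3 conditions were marked with a lipid-anchored oligonucleotide tag (MULTI-seq), and all were pooled in a single 10x Chromium run, which gave an expression library and a tag library. All groups share the electroporation, the vector and the sort, the plasmid reaches only some of the cells born after that time, and the labels name the cells of both libraries as rods. The labels do not say which tag marks which condition, so tags are given by number only. Each tag was 1 pool of cells with no replicate and with an unstated number of animals, so no test was made, and every interval below covers counting error only.

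ON bipolar cells are the retinal interneurons that depolarise when light comes on. In darkness photoreceptors release glutamate, which binds the metabotropic receptor mGluR6 at the tips of the ON bipolar dendrites and, through the G protein Go, keeps the cation channel TRPM1 closed. Light lowers glutamate, the G protein signal ends and the channel opens, which inverts the sign of the photoreceptor signal. Rod bipolar cells are the ON type that collects from rods.

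The promoters of 3 of the genes are shown because ON bipolar cells and photoreceptors share the homeobox factors Otx2 and Crx, whose core site is TAATCC. RefSeq promoter windows on GRCm38.p6 matched 8 of the 9 genes, Car8 being the exception. The search covered both strands of the 250 bases before each start. Shown 5' to 3' on the gene's strand, with the core or its reverse complement GGATTA in capitals, are the windows of Grm6 (chr11:50850435-50850684, plus strand), of the first Trpm1 start (chr7:64153585-64153834, plus strand) and of Cabp5 (chr7:13397905-13398154, plus strand).
Grm6: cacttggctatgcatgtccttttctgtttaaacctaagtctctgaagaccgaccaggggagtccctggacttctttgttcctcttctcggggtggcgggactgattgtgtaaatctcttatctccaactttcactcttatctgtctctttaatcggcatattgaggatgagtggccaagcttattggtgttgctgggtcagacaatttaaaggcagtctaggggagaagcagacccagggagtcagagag
Trpm1: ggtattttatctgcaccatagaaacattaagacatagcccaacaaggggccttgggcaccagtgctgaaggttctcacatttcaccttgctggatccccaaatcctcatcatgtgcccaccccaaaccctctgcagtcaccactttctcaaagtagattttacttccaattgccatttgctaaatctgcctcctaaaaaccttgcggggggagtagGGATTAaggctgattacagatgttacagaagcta
Cabp5: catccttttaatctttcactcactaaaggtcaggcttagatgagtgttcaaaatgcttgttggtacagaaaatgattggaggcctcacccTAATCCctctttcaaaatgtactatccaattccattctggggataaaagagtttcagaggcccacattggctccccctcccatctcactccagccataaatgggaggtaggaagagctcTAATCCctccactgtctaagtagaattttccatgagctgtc
The core was found in 3 of the 13 windows of these genes, against 6.25% of all 32851 windows of the same length. By gene it was found in 3 of 8, Trpm1, Isl1 and Cabp5, against 7.21% of 27025 genes. The Trpm1 match began 34 bases before the start, and Cabp5 had a match at 160 and another at 41 bases before its start. The Grm6 window held no copy. A second homeobox core, TAATTA, was found in 1 of the 13 windows, at a Pcp2 start, against 4.84% of all windows. These are matches of letters and do not show that a factor binds there.

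The 9 genes were nearly all counted in the same few barcodes. Of 11322 UMIs of the 9 genes in all 834 barcodes, 11072 (97.8%) lay in the set, 128 in rods and 122 in the 107 other barcodes. Since the genes chose the set, this concentration is a description and not a test. No gene of the list was held by 718 barcodes, 1 gene by 56 and 2 genes by 12. In the set the number held was 3 in 7 barcodes, 4 in 3, 5 in 1, 6 in 3, 7 in 6, 8 in 5 and 9 in 23, so the most frequent number in the set was the complete list. Barcodes just outside the rule, with 2 genes, had 507 to 19077 UMIs (median 2047), and those just inside it, with 3 genes, had 545 to 18735 UMIs (median 2183).

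The share of a barcode's UMIs that came from the 9 genes set most of these barcodes further apart than the number of genes held. It ran from 0.0534% to 5.45% in the set, with a median of 3.23%, and was 2% or more in 42 of the 48 barcodes. In rods it was 0% in 639 of 679 barcodes and at most 1.71%. The other 107 barcodes reached at most 1.21%. Only 4 set barcodes lay under 1%.

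Of those 4 barcodes, 3 also met the rod limit, and they stand apart from the other 45. They were called to tag 1, were the 3 deepest barcodes of the set (18317, 18735 and 85822 UMIs), and had rod gene shares of 3.47%, 3.23% and 3.09%. They held 3, 3 and 6 of the 9 genes at 0.0655%, 0.0534% and 0.100% of their UMIs. Grm6 and Trpm1 were at 0 UMIs in all 3. Together they held 26.8% of all UMIs of the set, so values without them are given where they differ.

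**Figure D1:**
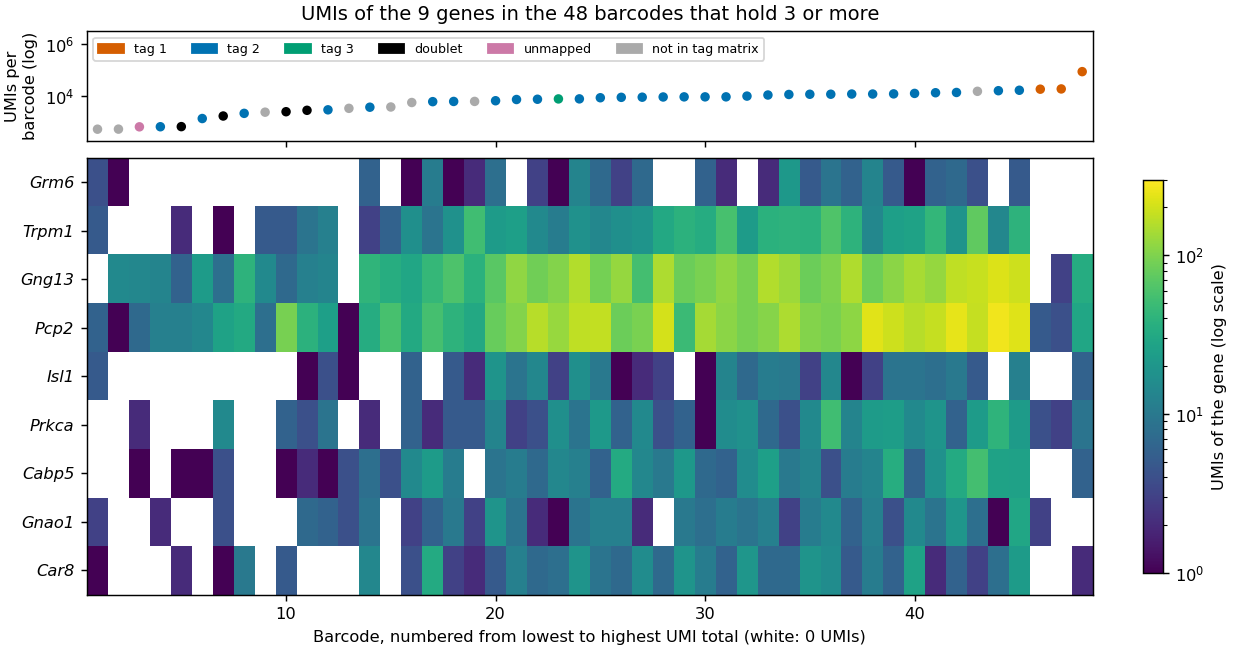
UMIs of each of the 9 genes (colour, log scale, white for 0) in the 48 set barcodes, numbered from the lowest to the highest UMI total, with that total above on a log scale and coloured by tag call. Trpm1, Gng13 and Pcp2 fill almost every column below the 3 deepest, whereas the 3 deepest columns, all tag 1, are white for Grm6 and Trpm1.

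Grm6 (ENSMUSG00000000617, chr11:50850685-50866208, plus strand, positions here and below from GENCODE on mm10) encodes mGluR6 itself. Set barcodes had 0 to 21 Grm6 UMIs with a median of 1, and 28 of 48 held it (58.3%, 43.2% to 72.4%). No UMI was counted in 679 rods, which allows a share of holding rods of up to 0.442% and a level of up to 1.65 CPM (counts per 1000000 summed UMIs of a group). Its summed level in the set was 349 CPM (297 to 408), at least 212-fold the level that 3 UMIs over all rods would give, and 478 CPM without the 3 barcodes at the rod limit. Grm6 was thus found in most set barcodes and in no rod, and within the set it was the gene most often missing. The 17 of the 45 barcodes below the rod limit that lacked it had a median of 2855 UMIs.

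Gnao1 and Gng13 encode subunits of the G protein that couples to the receptor. Gnao1 (ENSMUSG00000031748, chr8:93809966-93969388, plus strand), the alpha subunit of Go, had 0 to 29 UMIs in set barcodes (median 5) and was held by 37 of 48 (77.1%, 62.7% to 88.0%). In rods 5 UMIs lay in 2 barcodes (0.295%). Summed levels were 675 CPM in the set and 2.75 CPM in rods, a log2 ratio of 7.81 (6.70 to 9.57).

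Gng13 (ENSMUSG00000025739, chr17:25717171-25719406, plus strand), the gamma subunit, had 0 to 224 UMIs in set barcodes with a median of 76, and 45 of 48 held it (93.8%, 82.8% to 98.7%). Of the 9 genes it was also the one held by most rods, with 62 UMIs in 21 rods (3.09%, 1.92% to 4.69%) and at most 10 in 1 rod. The log2 ratio of its summed levels was 7.86 (7.51 to 8.26). Gng13 was also held by 4 of 9 cone-like barcodes (44.4%, 13.7% to 78.8%), of which 8 also count as rods. These 9 barcodes are those in which cone genes reached 1% of UMIs and exceeded the rod genes, and their median depth of 2694 UMIs was close to the 2446 of rods and far under the 8221 of the set.

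Pcp2 (ENSMUSG00000004630, chr8:3623371-3625545, minus strand), a protein that binds Go alpha subunits and modulates their nucleotide exchange, was the only gene held by all 48 set barcodes. Its UMIs there ranged from 1 to 265 with a median of 88.5. Rods had 14 UMIs in 6 barcodes (0.884%, 0.325% to 1.91%). Summed levels of 9665 and 7.69 CPM gave a log2 ratio of 10.24 (9.55 to 11.17).

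Trpm1 (ENSMUSG00000030523, chr7:64153835-64269775, plus strand), the cation channel at the end of the cascade, had 0 to 75 UMIs in set barcodes (median 16) and was held by 39 of 48 (81.3%, 67.4% to 91.1%), all of them below the rod limit. Rods had 0 UMIs, and the summed level of the set, 2068 CPM (1939 to 2204), was at least 1255-fold that of 3 UMIs over the rods (2827 CPM without the 3 barcodes at the rod limit). Outside the set Trpm1 was held by 2 barcodes of the other 107. Receptor and channel were thus both at 0 in every rod, whereas each of the G protein genes was seen in at least 2 rods.

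The remaining genes mark these cells or have other roles in them. Isl1 (ENSMUSG00000042258, chr13:116298281-116309689, minus strand), a LIM homeobox factor needed for bipolar cell development, had 0 to 19 UMIs in set barcodes (median 3). It was held by 32 of 48 (66.7%, 51.6% to 79.6%) and by 0 rods, so that the summed level of 489 CPM was at least 297-fold that of 3 UMIs over the rods. Like the receptor and the channel, it had no UMI in any rod. Unlike them, it was held by 1 of the 3 set barcodes at the rod limit, with 6 UMIs. The rule counts that barcode in the set, so the absence of Isl1 from rods depends on the rule.

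Prkca (ENSMUSG00000050965, chr11:107933387-108343928, minus strand), protein kinase C alpha and the classical marker of rod bipolar cells, had 0 to 52 UMIs (median 6) and was held by 39 of 48 set barcodes (81.3%). It had the smallest ratio of the 9 genes, 1029 CPM in the set against 19.8 CPM in rods, where 36 UMIs lay in 13 barcodes (1.91%), for a log2 ratio of 5.68 (5.21 to 6.23). All 3 set barcodes at the rod limit held it.

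Cabp5 (ENSMUSG00000005649, chr7:13398132-13408887, plus strand), a calcium-binding protein of rod bipolar and some cone bipolar cells, had 0 to 54 UMIs (median 7.5) in the set and was held by 40 of 48 barcodes (83.3%). Rods had 10 UMIs in 3 barcodes, 8 of them in 1 barcode, and the log2 ratio was 7.63 (6.81 to 8.77). Without the barcode with most Cabp5 UMIs in each group it was 9.54, so 1 barcode decided much of the level in rods. That barcode was also cone-like, with a rod gene share of 1.53%. With rods of at least 2% rod genes the log2 ratio was 10.39.

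Car8 (ENSMUSG00000041261, chr4:8143362-8239041, minus strand), a carbonic anhydrase-related protein without enzyme activity, had 0 to 33 UMIs (median 6) and was held by 37 of 48 set barcodes (77.1%). A single UMI was found in rods, in a barcode that was also cone-like, and the log2 ratio of 9.91 has a wide interval (8.01 to 15.80) for the single count.

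All 9 genes passed a 4-fold higher level in the set, where 16% of the 9023 genes with at least 10 UMIs in both groups together did so. The median log2 ratio of the 9 was 9.91, or 7.86 with Grm6, Trpm1 and Isl1 placed at their bounds, against 0.38 over all 9023. As the genes chose the set, nothing is read from these counts.

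**Figure D2:**
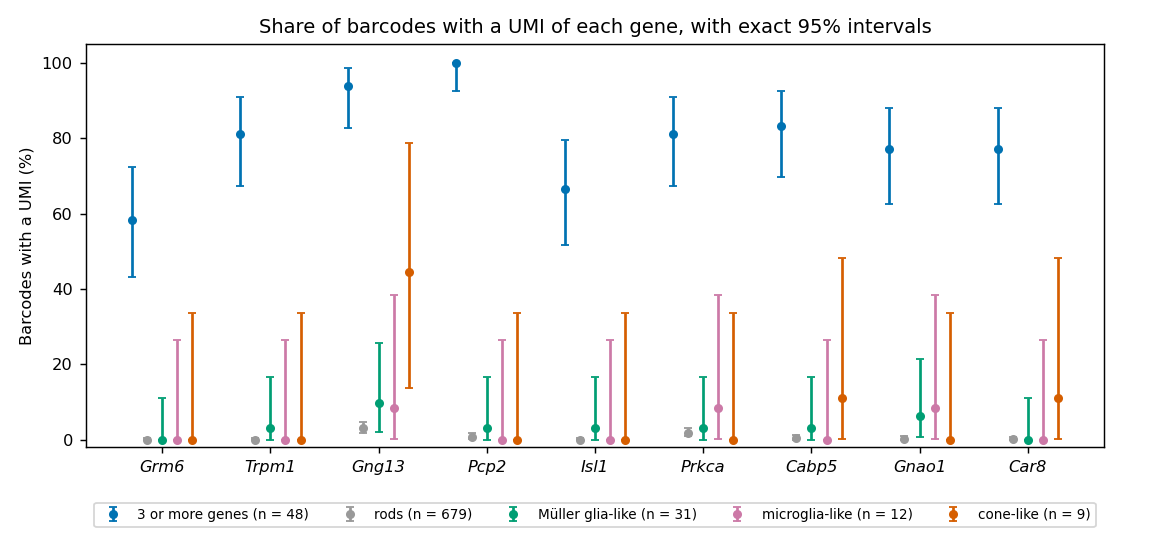
Share of barcodes with at least 1 UMI of each gene (percent, points) with exact 95% intervals (lines) in the set, in rods and in barcodes with a Müller glia, microglia or cone marker share of at least 1%. All set points lie at 58.3% or more, rods lie at 3.09% or less, and the highest point outside the set is Gng13 in cone-like barcodes, 44.4%.

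Free RNA in droplets and depth bear on any share of barcodes with a UMI, so 2 further views were taken. Microglia-like barcodes, which should lack the whole list, had a median of 4065 UMIs, and 6 of the 9 genes were at 0 in all 12 of them, with Gng13, Prkca and Gnao1 in 1 barcode each. When every barcode was thinned to 1000 UMIs, which left out 5 set barcodes and 64 rods, Pcp2 and Gng13 were each held by 93.0% of 43 set barcodes and by 0.325% and 1.46% of 615 rods. Trpm1 was then held by 67.4%, Cabp5 by 60.5%, Prkca by 51.2%, Gnao1 by 48.8%, Car8 by 46.5%, Grm6 by 25.6% and Isl1 by 23.3% of the set, and none of them by more than 1.14% of rods. As the same genes at full depth had chosen the set and kept such barcodes out of the rods, these shares describe the groups and are no check on depth or free RNA.

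The number of genes held also moved with depth. A limit of 5000 UMIs, chosen after the values were seen, split the 45 set barcodes below the rod limit into 30 deep ones (median 9328 UMIs) and 15 shallow ones (median 2183). Of the 30 deep barcodes, 23 held all 9 genes and 27 held 8 or 9. Trpm1, Gng13, Pcp2, Prkca and Car8 were held by all 30, Cabp5 and Gnao1 by 29, Isl1 by 27 and Grm6 by 25. None of the 15 shallow barcodes held all 9, and Grm6 was held by 3 of them, Isl1 by 4 and Pcp2 by 15. Of the 23 rods with 5000 or more UMIs (median 6802), 17 held none of the genes. By the rule no rod can hold more than 2, and the 3 deep barcodes at the rod limit that held more are counted in the set, so no contrast is read from this.

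**Figure D3:**
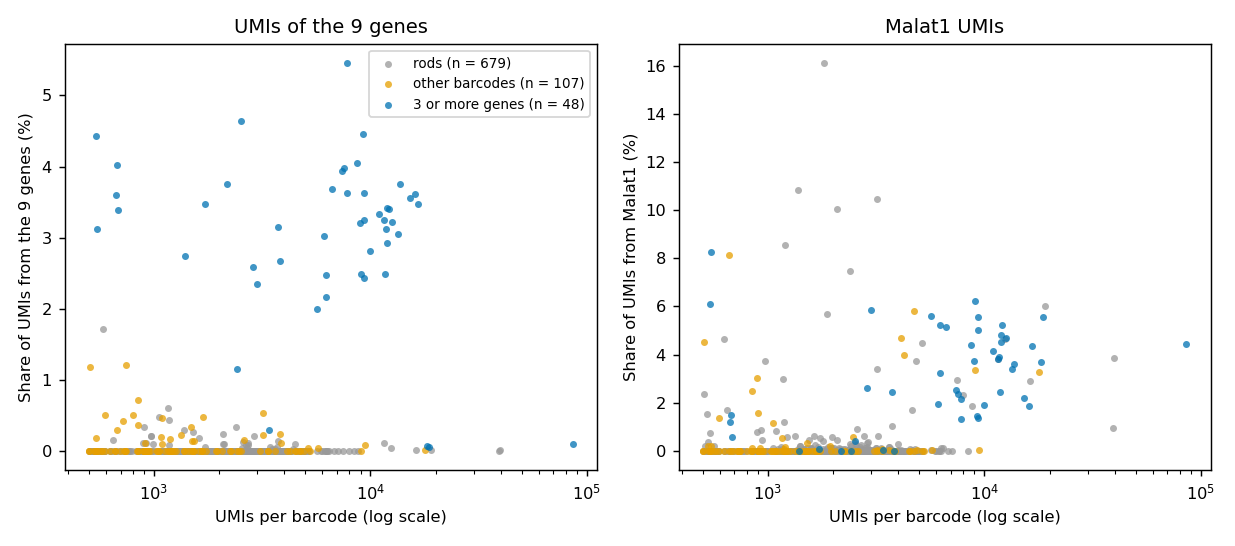
Share of a barcode's UMIs from the 9 genes (left) and from Malat1 (right), both in percent, against its total UMIs (log scale), with 1 point for each barcode of the set, the rods and the others. On the left 42 of the 48 set barcodes lie at 2% or more and rods of every depth at 1.71% or less, whereas on the right rods reach 16.1% and the set 8.26%.

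Within the 30 deep barcodes the genes varied to different degrees. Per 10000 UMIs, Gng13 ranged from 51.1 to 197 with a coefficient of variation of 0.303, and Pcp2 from 49.6 to 226 (0.393). Trpm1 ranged from 8.73 to 83.3 (0.526). Grm6, with 0 to 18.2, had a coefficient of 1.02, and Isl1, with 0 to 28.7, one of 0.917. Cabp5, Gnao1, Prkca and Car8 lay between at 0.607, 0.670, 0.695 and 0.873. The genes with the lowest counts, Grm6 and Isl1, had the highest coefficients, and the part of counting error in them was not tested. Across the same 30 barcodes the 36 pairs of genes had Spearman correlations from -0.46 (Trpm1 and Pcp2) to 0.55 (Gng13 and Pcp2), with a median of 0.0036 and 19 above 0. The points share a library, and each value was divided by the same barcode total, so no further reading is made.

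Other proteins of the same complex were then examined with 10 genes that were not used to choose the set. Of these, 6 were 4-fold or more higher in the set and 0 were 4-fold lower (over all genes tested 16% and 8.12%), with a median log2 ratio of 4.38, or 3.06 with genes at 0 in rods placed at their bounds. These counts include the 3 barcodes at the rod limit. Without them 5 were higher, and the number lower was not counted again. Among barcodes within the study's limits on cells, 3 passed. Gpr179, the orphan receptor that holds the regulators of G protein signalling at the dendritic tip, had 98 UMIs in 20 set barcodes and 3 in rods, a log2 ratio of 6.81 (5.43 to 9.32). The regulators themselves, which speed the end of the Go signal, were Rgs7 with 63 UMIs in 19 set barcodes and 1 in rods (log2 ratio 7.39, 5.44 to 13.29), and Rgs11 with 43 UMIs in 14 set barcodes and 0 in rods, at least 57.0-fold. Nyx, the proteoglycan that helps to place TRPM1, had 14 UMIs in 3 set barcodes and 0 in rods (at least 18.5-fold). Cacna1s, a calcium channel subunit found in this complex, had 10 UMIs in 6 set barcodes and 0 in rods (at least 13.2-fold). Lrit3, another leucine-rich repeat protein of the synapse, passed with 12 UMIs against 9 (log2 ratio 2.39, 1.04 to 3.83), but both of its 2 set barcodes were at the rod limit and none of the other 45 held it.

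The 4 genes that did not pass 4-fold were also counted in many rods. Gnb3, the beta subunit that partners Gng13 and is also the beta subunit of cone transducin, had 372 UMIs in 38 set barcodes and 603 in 115 rods, a log2 ratio of 1.29 (1.10 to 1.48), and all 30 deep set barcodes held it. Gnb5, the obligate partner of Rgs7 and Rgs11, had a log2 ratio of 0.24 (0.02 to 0.46), Ric8b, a chaperone of G protein alpha subunits, one of 0.62 (-0.04 to 1.22), and Rgs9bp, an anchor of RGS proteins that rods also use, one of -0.12 (-0.44 to 0.19). Single barcodes gave 84 of the 221 Gnb5, 27 of the 31 Ric8b and 84 of the 106 Rgs9bp UMIs of the set. Of the 45 barcodes below the rod limit, 1 held Ric8b (3 UMIs) and 2 held Rgs9bp (10 UMIs). In rods Ric8b had 81 UMIs in 30 barcodes and Rgs9bp 458 in 119. The ratios of these 2 genes thus do not describe the 45 barcodes.

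To see whether the set is bipolar by genes outside the rule, 20 bipolar genes were counted, some of them known from only some bipolar types. This list too was chosen with earlier results of these data known. Of these, 3 or more were held by 41 of 48 set barcodes (85.4%, 72.2% to 93.9%), by 2 of 679 rods (0.295%, 0.0357% to 1.06%) and by 0 of the 107 other barcodes, which allows up to 2.80%. All 30 deep set barcodes below the rod limit held 3 or more, with a median of 9, and 1 of the 23 rods of 5000 or more UMIs did. The 3 set barcodes at the rod limit are in neither of these groups, and 2 of them held 3 or more. Median depth also differed, 9328 UMIs against 6802, so no contrast is read from these 2 groups. Of the 13 genes with enough UMIs, 11 were 4-fold or more higher in the set and 0 were 4-fold lower (over all genes tested 16% and 8.12%). The 13 had a median log2 ratio of 8.56, or 7.77 at the bounds. Pcp4, a calmodulin regulator, had 2031 UMIs in 45 set barcodes and 17 in rods (log2 ratio 8.85), and Trnp1, a nuclear protein, 694 in 38 against 4 (9.26).

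The other bipolar genes that passed had various roles. Bhlhe23, a factor needed for rod bipolar cell maturation, had 52 UMIs in 14 set barcodes and 0 in rods (at least 68.9-fold), and Sebox 373 in 36 against 11 (log2 ratio 7.01). The membrane protein genes Vstm2b (192 UMIs in 35 set barcodes, 0 in rods, at least 254-fold) and Lrtm1 (255 in 32 against 1, log2 ratio 9.40) passed too. The subunits of the GABA receptor of bipolar terminals, Gabrr1 and Gabrr2, had log2 ratios of 8.56 and 7.77, and Grik1, a kainate receptor gene known from OFF cone bipolar cells, had 16 UMIs in 7 set barcodes and 0 in rods (at least 21.2-fold). Prdm8, a zinc finger factor, passed with a log2 ratio of 3.16 (2.76 to 3.57).

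Of the 20 bipolar genes, 7 were at 0 in the set. Vsx1, Cabp2, Tacr3, Neto1, Bhlhe22, Irx6 and Samsn1 had 0 UMIs in the 457855 UMIs of the set, which allows up to 6.55 CPM each. Scgn, a calcium-binding protein known from cone bipolar cells, had 7 UMIs in 2 set barcodes and 24 in rods (log2 ratio 0.28, -1.25 to 1.47). Otx2, which photoreceptors use too, had a log2 ratio of 1.48 (1.22 to 1.73).

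Markers of other retinal cells were summed in the same barcodes. The 15 rod genes summed to 20852 CPM in the set, but to 758 CPM (668 to 857) in the 45 barcodes below the rod limit, against 124630 CPM in rods. In those 45 barcodes the 7 cone genes summed to 8.96 CPM against 979 in rods, the 8 amacrine genes to 0 (up to 8.96) against 23.1, the 7 ganglion cell genes to 11.9 against 41.2, and the 8 Müller glia genes to 307 (251 to 373) against 762. Müller glia genes did not go one way, however. Over the whole set Clu, which gave 1110 of the 1387 UMIs of that list in rods, had a log2 ratio of -2.41. Over the same barcodes Glul had 2.17 and Aqp4 3.24, and the median of the 6 tested was 1.13. Of the 108 Glul UMIs of the set 54 lay in 1 barcode, and of the 34 Aqp4 UMIs 24 lay in 1 barcode. In the 45 barcodes horizontal cell, microglia and endothelial genes each had 2 UMIs, and the 4 red cell genes 4. Opn1mw, Arr3, Gnat2 and Pde6c were at 0 in the whole set. The 4 genes of the rod rule fix part of the rod sums. The 11 rod genes outside that rule summed to 603 CPM (523 to 692) in the 45 barcodes and to 80967 CPM in rods. Their share of a barcode's UMIs was at most 0.280% in the 45 barcodes and had a median of 8.44% in rods, of which the lowest, at 0.0749%, overlapped. The labels name the cells as rods, and these 11 genes were low in the 45 barcodes. The 3 set barcodes left out had shares of 3.92% to 5.85%. Since the 4 genes of the rod rule split the 45 from the rods, the contrast describes the groups and is no independent check.

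**Figure D4:**
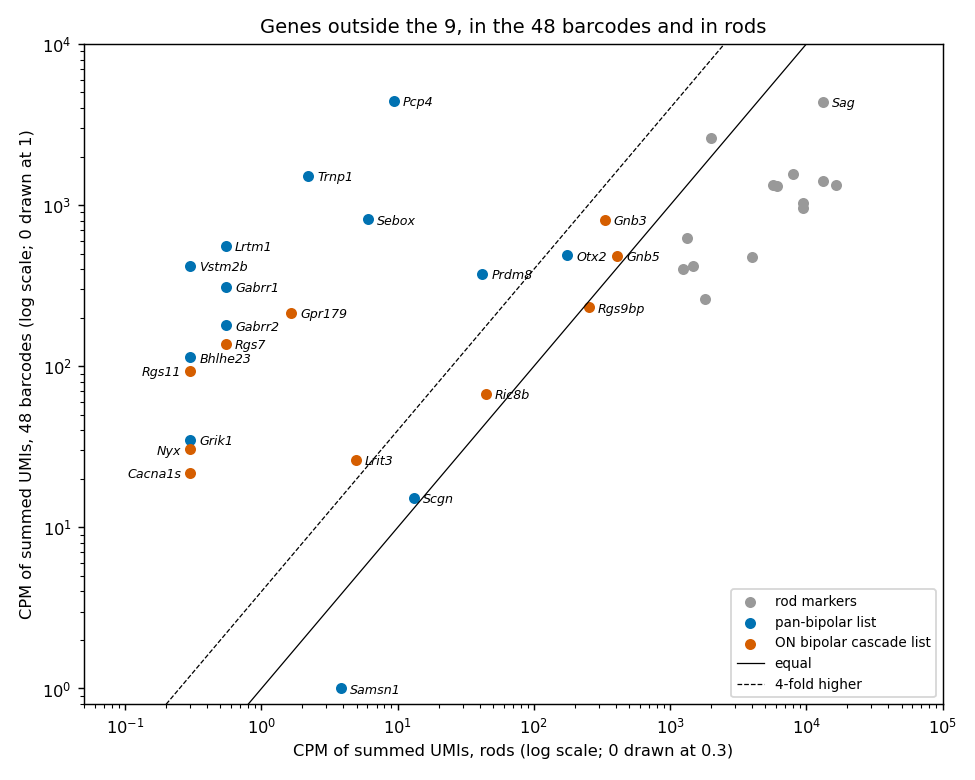
Summed level of each gene in the set (vertical axis, CPM, log scale) against rods (horizontal axis, CPM, log scale) for genes of the cascade, bipolar and rod lists, with a level of 0 drawn at a small fixed value given on each axis. Pcp4, Trnp1 and the other bipolar genes drawn that passed 4-fold lie above the dashed line, while the place of Sag, below the line of equal level, was fixed by the rule for rods, which used it.

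The genes whose detection followed membership of the set most closely, among 7008 genes seen in at least 10 barcodes, were ranked by the phi coefficient over 834 barcodes, where 1 would mean detection in every set barcode and in no other. Trpm1 and Pcp2 had 0.872 each, Car8 0.859 and Gng13, the lowest of the 9, 0.711. The 10 closest genes outside the list were Qpct, a glutaminyl cyclase (0.863), Nap1l5, of the nucleosome assembly protein family (0.836), Vstm2b (0.834), Ptprd, a receptor tyrosine phosphatase (0.822), B3galt2, a galactosyltransferase (0.809), Ntng1, netrin G1 (0.808), Lrtm1 and the synaptotagmin Syt4 (both 0.795), and the potassium channel gene Kcnma1 and the homeobox gene Prox1 (both 0.785). Qpct had 460 UMIs in 40 set barcodes and 1 in rods, and Ntng1 had 532 in 33 set barcodes and 0 in rods (at least 705-fold). These genes were chosen for their likeness, which is a description over barcodes of 1 library.

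Set barcodes were deeper than rods. They had a median of 8221 UMIs (quartiles 3292 and 11805) and 1525.5 detected genes, and rods had 2446 UMIs (1678 and 3208.5) and 502 genes. Without the 3 barcodes at the rod limit the median of the set was 7778 UMIs. The median mitochondrial share was 20.4% (12.9% and 24.0%) in the set and 16.1% (11.5% and 21.7%) in rods. The limits that the study states for cells, 200 to 2500 detected genes and at most 18% mitochondrial UMIs, kept 16 of 48 set barcodes (33.3%, 20.4% to 48.4%) and 377 of 679 rods (55.5%, 51.7% to 59.3%), and these intervals did not overlap. The mitochondrial limit alone was exceeded by 27 set barcodes, so that most barcodes of the set lay outside those limits.

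Malat1 (chr19:5795690-5802672, minus strand), a long non-coding RNA that stays in the nucleus, was higher in the set in summed UMIs. It was found in 44 of 48 set barcodes (91.7%, 80.0% to 97.7%) with 0 to 3822 UMIs and a median of 3.31% of a barcode's UMIs. In rods it was found in 129 of 679 barcodes (19.0%, 16.1% to 22.2%), with a median of 0% and a highest value of 16.1%. Thinned to 1000 UMIs the shares were 90.7% of the set and 13.7% of rods. The log2 ratio of the summed levels was 3.14 (3.10 to 3.18), and 3.02 without the 3 barcodes at the rod limit. With Malat1 counted once per barcode, but still divided by the summed UMIs of each group, the log2 ratio was 0.45. That value is not a ratio of the shares of barcodes given above. Among barcodes of 5000 or more UMIs the log2 ratio of the summed levels was much smaller. It was 0.74 (0.69 to 0.79) without the 3 set barcodes at the rod limit and 0.84 with them. All 30 deep set barcodes below the rod limit and 13 of 23 rods held Malat1 (56.5%, 34.5% to 76.8%). The median share of a barcode's UMIs was 3.78% in those 30 and 0.0936% in those 23 rods. Of the 5352 Malat1 UMIs of the 23 rods, 1529 lay in 1 barcode. Depth moved with the difference in summed Malat1 levels, and its part in that difference was not tested.

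The set was unevenly spread over the tags. It took 31 of 316 barcodes of tag 2 (9.81%, 6.76% to 13.6%), 3 of 264 of tag 1 (1.14%, 0.235% to 3.28%) and 1 of 41 of tag 3 (2.44%, 0.0617% to 12.9%). The interval of tag 2 thus lay above that of tag 1, while that of tag 3 overlapped both. The 3 barcodes of tag 1 are those at the rod limit, so below that limit tag 1 had 0 of 264, which allows up to 1.14%. Rods were less uneven: tag 1 had 251 of them, tag 2 had 280 and tag 3 had 36. Among barcodes within the study's limits the set took 13 of 154 in tag 2 (8.44%, 4.57% to 14.0%), 0 of 212 in tag 1 (up to 1.42%) and 1 of 28 in tag 3.

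The 31 barcodes of tag 2 had 672 to 16663 UMIs (median 9314), held 3 to 9 of the genes (median 9), and gave 2.35% to 5.45% of their UMIs to them. The single barcode of tag 3 had 7778 UMIs, held all 9 genes and gave 3.63% of its UMIs to them. Their tag counts were high: set barcodes of tag 2 had a median of 214 tag 2 counts (18 to 501) and 12 tag 1 counts, whereas rods of tag 2 had 55 (11 to 390) and 11. Rods with a gene of the list came from other tags as well, since of the 21 that held Gng13, tag 1 had 13 and tag 2 had 3, and 5 had no entry in the tag matrix. The labels do not give the number of retinas in a pool, so the animal, the plasmid and the handling of a pool cannot be told apart.

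**Figure D5:**
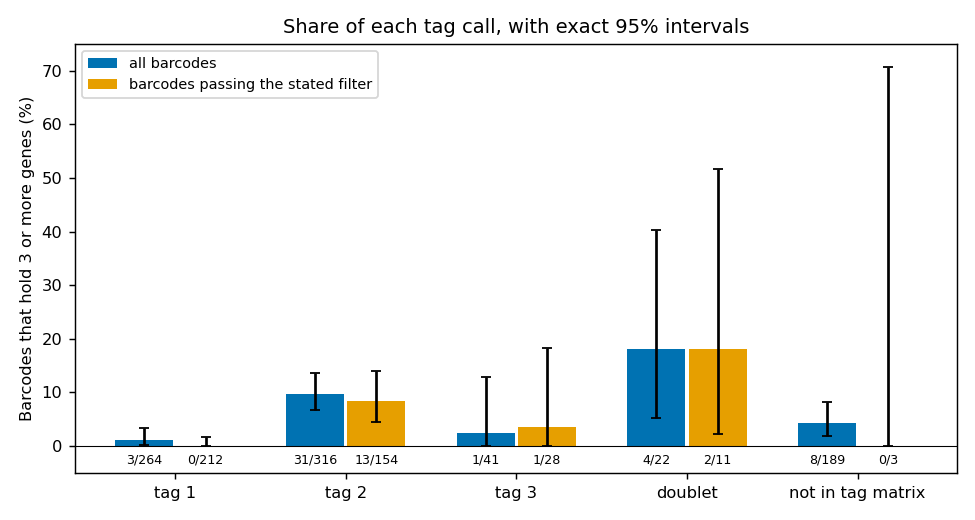
Share of the barcodes of each tag call that belong to the set (percent, bars from 0) with exact 95% intervals (lines) and the counts below, over all barcodes and over those within the study's limits on cells. Tag 2 lies at 9.81% and 8.44%, and tag 1 at 1.14% and 0%.

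Barcodes without a single tag also held the genes. Of 22 barcodes called tag doublets, 4 belonged to the set (18.2%, 5.19% to 40.3%), beside 35 of 621 with a single tag (5.64%, 3.96% to 7.75%), and these intervals overlap. The 4 had 679 to 2855 UMIs, held 5 to 7 genes at 2.59% to 4.64% of UMIs, and none reached the rod limit. The 1 barcode called unmapped held 4 genes in 667 UMIs. Scrublet called 5 of 834 barcodes doublets, 1 of them in the set.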

How the data were processed

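The deposited expression matrix holds UMI counts per gene and barcode, without normalization. The authors used Cell Ranger (6.1.2 per the submitters' processing notes, 3.1.0 in the matrix header) and mm10. No source used here names the annotation release. The deposited tag matrix holds tag counts for 645 of the 834 barcodes, and the deposited tag calls were made by the authors. The expression library holds 2487110 UMIs, a median of 2395 per barcode. Unused columns of per-sample values numbered 0.

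Every barcode was kept, doublets included. Counts were summed over the set and over rods, levels are CPM of summed UMIs, and log2 ratios have 0.5 UMIs added to both sums. Genes with at least 10 UMIs in both groups together were compared, and 4-fold was the limit of a call. Shares have exact Clopper-Pearson, sums exact Poisson and ratios exact conditional 95% intervals. A count of 0 is bounded by 3 UMIs over the group. Müller glia-like, microglia-like and cone-like barcodes had at least 1% of UMIs from that list and more than from the 4 rod genes. Scrublet (scanpy 1.11.5, expected rate 6%) was run to find doublets and marked 0.6% of barcodes. Named are the 9 genes, list genes past 4-fold and those at 0, Malat1, the rod genes and the 10 genes most like the set by phi. Some list genes count in the totals but are not reported here by name. Other list genes are named where a count is broken down, chosen after their values were seen. The counting of ratios was tested on simulated data. Python 3.11.15, numpy 2.4.6, scipy 1.17.1 and pandas 2.3.3 were used. The members and lists were chosen with earlier results of these data known. Alternatives were another number of genes held, the study's limits on cells, thinning, a rod limit of 2%, doublets left out, other sums, and, added after seeing the data, barcodes of 5000 or more UMIs.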

Additional observations from a re-analysis of the deposited data

Results flagged for a closer look

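The barcodes that the tag matrix does not hold are outside the comparison of tags, and 8 of these 189 barcodes belonged to the set (4.23%, exact 95% interval 1.84% to 8.17%). They had 542 to 15185 UMIs (median 3609.5), a median mitochondrial share of 38.2% and 3 to 9 of the genes at 0.294% to 4.43% of their UMIs. None of them passed the study's limits on cells.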

How the results depend on the processing

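Values were recomputed under other choices, and of 290 values 230 moved by less than their counting interval or stayed within 1.5 times for counts. There were 0 changes of direction, which only log2 ratios could show. As 81 of these ratios were of the 9 genes that chose the set, nothing is read from that. No paired analysis was possible because the libraries hold no replicates and no test was made. Within the study's limits on cells the set had 16 barcodes, 13 in tag 2 and 0 in tag 1, its median mitochondrial share was 14.2%, 3 genes of the cascade list passed 4-fold and 1 of the marker lists of other cell types was higher in the set, where 3 were over all barcodes. Tag 1 had 9 set barcodes when 2 genes sufficed, 0 after thinning to 1000 UMIs and 0 without barcodes at the rod limit, which also left 1 marker list higher. The Malat1 log2 ratio was 2.86 with at least 4 genes, 3.52 within the limits on cells, 3.21 with rods of at least 2% rod genes, 3.02 without barcodes at the rod limit, 0.45 with each gene counted once per barcode, 3.83 as the mean of single barcodes, 3.09 without the top barcode of each group and 0.84 in barcodes of 5000 or more UMIs, a choice made after seeing the data. The cause of these shifts was not tested, apart from the smaller number of barcodes within the limits on cells. The 81 log2 ratios of the 9 genes ran from 3.07, for Gng13 counted once per barcode, to 13.33. Counts once per barcode, here and for Malat1, were still divided by summed UMIs, so they are not ratios of shares of barcodes. With each gene left out of the rule in turn the set had 41 to 48 barcodes, tag 1 had 1 to 3, tag 2 had 28 to 31 and tag 3 had 1. Of the 9 genes, Grm6 and Isl1 were held by the fewest of the 15 shallow set barcodes, 3 and 4. Prkca and Car8 followed with 6 each, and the part of depth in this was not tested.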
